A study of Homo sapiens with 18 samples.

Results

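The 10 demethylases described here are enzymes that set formaldehyde free when they take a methyl group off a histone, RNA or DNA: KDM1A, KDM1B, KDM2A, KDM3A, KDM4A, KDM5B, KDM6B, FTO, ALKBH5 and ALKBH2. Every probeset whose platform annotation gave exactly 1 of these symbols was taken, which gave 25 of the 54675 probesets of the array and 10 of the 19775 genes that have a probeset of their own. KDM5B and KDM6B had 5 probesets each, KDM2A and ALKBH5 had 3 each, KDM1B, KDM3A and KDM4A had 2 each, and KDM1A, FTO and ALKBH2 had 1 each. The cells were A549, a human lung carcinoma line, grown on transwell membranes at the air-liquid interface and kept for 72 h in a humidified chamber atmosphere. In each of 9 experiments a culture from the exposure chamber and a culture from the reference chamber were measured, 1 array each. The 6 groups of 3 arrays were the exposure chamber at 0 ppm with its reference chamber, the exposure chamber at 0.1 ppm formaldehyde with its reference chamber, and the exposure chamber at 0.5 ppm formaldehyde with its reference chamber. All reference chambers, and the exposure chamber at 0 ppm, were free of added formaldehyde. A549 is a single tumour line, so the replicates are repeated experiments and not donors.

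Demethylases use one of 2 chemistries. KDM1A and KDM1B oxidise the methylated lysine with a flavin cofactor, whereas the Jumonji histone demethylases and the AlkB family members FTO, ALKBH5 and ALKBH2 hydroxylate the methyl group with iron, oxygen and 2-oxoglutarate. In both cases the oxidised methyl group leaves as formaldehyde, so these enzymes are a source of formaldehyde within the nucleus beside any that reaches the cell from the air. Since formaldehyde is a product of their reaction, the study's chambers allow the transcripts of these enzymes to be followed with and without the airborne compound.

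The values are MAS 5.0 signals, which condense the oligonucleotides of a probeset into 1 number on a linear scale, and the median signal of an array lay between 26.7 and 34.0. Signals of different probesets are not set against each other. Of 9 genes listed as markers of A549, 9 were above the median probeset. So were 2 of 4 fibroblast, 1 of 3 endothelial and 1 of 3 measured leukocyte markers, so a level above the median does not tell these lists apart. As percentiles of all probesets, the A549 markers lay at 81.7 or higher except KRT19 (59.1). The fibroblast, endothelial and leukocyte markers reached at most 74.1, 50.7 and 63.5. CDKN2A, which A549 has lost, had signals of 0.54 to 18.8. Actin has a control probeset near its 5′ end, whose signal drops where RNA is degraded. It stood at 115 in replicate 3 of the 0 ppm reference cultures and at 59.8 in replicate 1 of the 0.1 ppm reference cultures, while the remaining 16 arrays held 215 to 835. The 5′ control probeset of GAPDH went the other way, at 24926 and 25996 on these 2 arrays, against 13007 to 20269 on the other 16. Whether their RNA was degraded was not tested. Values without these 2 arrays are given beside the comparisons of chambers at 0 and 0.1 ppm in which they moved a value or a count.

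The promoters of 4 demethylases are shown because the results turn on their genes. FTO and the KDM4A probeset 203204_s_at had a lower signal in the exposure chamber of every experiment, and KDM1B and ALKBH5 went up and down together over the arrays. Each is the RefSeq sequence (GRCh38.p14, plus strand) from 250 bases before to 50 bases after the gene's start, at chr16:53703906-53704205 for FTO, chr1:43649899-43650198 for KDM4A, chr6:18155172-18155471 for KDM1B and chr17:18183578-18183877 for ALKBH5. Capitals mark the motif of the factor ZNF143 in FTO, the CCAAT box (or ATTGG on the other strand) in KDM4A, the GC box GGGCGG (or CCGCCC) in KDM1B, and the GC box and the motif GCGCATGC of the factor NRF1 in ALKBH5.
FTO: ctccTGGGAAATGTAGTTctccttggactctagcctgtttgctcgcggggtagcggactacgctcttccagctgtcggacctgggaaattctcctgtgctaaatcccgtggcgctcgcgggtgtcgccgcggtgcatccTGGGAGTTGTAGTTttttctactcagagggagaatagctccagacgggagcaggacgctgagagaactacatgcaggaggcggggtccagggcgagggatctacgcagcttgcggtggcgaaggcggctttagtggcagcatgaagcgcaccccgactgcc
KDM4A: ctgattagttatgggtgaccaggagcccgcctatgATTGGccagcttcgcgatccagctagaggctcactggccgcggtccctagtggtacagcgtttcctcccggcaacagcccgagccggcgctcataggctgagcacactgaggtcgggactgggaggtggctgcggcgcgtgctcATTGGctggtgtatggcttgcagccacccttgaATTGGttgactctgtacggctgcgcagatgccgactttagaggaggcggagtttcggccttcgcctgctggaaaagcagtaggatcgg
KDM1B: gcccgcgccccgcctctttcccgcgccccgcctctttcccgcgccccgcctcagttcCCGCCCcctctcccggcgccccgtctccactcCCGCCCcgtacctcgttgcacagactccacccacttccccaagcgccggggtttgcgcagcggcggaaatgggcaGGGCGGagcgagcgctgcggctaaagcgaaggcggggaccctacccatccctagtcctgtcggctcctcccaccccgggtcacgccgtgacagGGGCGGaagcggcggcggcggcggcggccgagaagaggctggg
ALKBH5: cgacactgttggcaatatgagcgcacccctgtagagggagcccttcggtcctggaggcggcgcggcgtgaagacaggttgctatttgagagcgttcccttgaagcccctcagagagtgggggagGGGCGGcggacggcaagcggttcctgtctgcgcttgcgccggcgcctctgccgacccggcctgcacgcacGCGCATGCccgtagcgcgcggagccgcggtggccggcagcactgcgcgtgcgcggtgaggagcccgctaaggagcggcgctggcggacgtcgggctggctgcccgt

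Both strands were searched for 5 motifs, each motif was counted on its own, and all 10 genes matched a promoter, 13 sequences of 300 bases in all. The ZNF143 motif, 14 letters of which the sixth and seventh were left free, stood 2 times in the FTO promoter and in 0.681% of the 35116 promoters, and 0.0399% held it 2 or more times. The CCAAT box stood 3 times in the KDM4A promoter, and 34.6% of promoters held it. The GC box stood 4 times in the KDM1B promoter and 1 time in the ALKBH5 promoter, and 45.0% of promoters held it. The NRF1 motif stood 1 time in the ALKBH5 promoter and in 3.05% of promoters. The core of the hypoxia response element, ACGTG, stood 1 time in the KDM1A promoter and in 21.4% of promoters. These letters were not in the windows of KDM3A, a gene known to be induced by hypoxia. A match is a run of letters and does not show that a factor was bound. FTO and KDM4A shared none of the motifs searched, and the promoters of KDM1B and ALKBH5 both held 39 CpG dinucleotides, more than 91.3% of promoters had.

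Of the demethylase probesets, 1 passed the test in the comparisons of concentrations and chambers, and it was a dim one of KDM5B. The study's threshold in each comparison was an unadjusted p under 0.05 in limma. It was met by 0 of the 25 probesets between exposure and reference chamber at 0 ppm, at 0.1 ppm or at 0.5 ppm, where 4.84%, 4.00% and 3.92% of all probesets passed. Within the exposure chamber 0 passed between 0.1 and 0 ppm and 1 between 0.5 and 0 ppm, where 4.47% and 4.56% of all probesets passed. Comparisons within the exposure chamber set different experiments against each other, numbered 7 to 9 at 0 ppm and 1 to 6 at 0.1 and 0.5 ppm. Concentration and experiment cannot be told apart in them. The difference between chambers was also compared between experiments, and again 0 passed at 0.1 against 0 ppm and 0 at 0.5 against 0 ppm, with 3.21% and 3.69% of all probesets past the threshold. After Benjamini-Hochberg adjustment over all probesets, none of the 54675 passed in any of these 7 limma comparisons. The study itself kept a transcript only if it passed against the reference chamber and against the exposure chamber at 0 ppm. It also had to miss the threshold between chambers at 0 ppm. No demethylase probeset met that rule in these fits. These are RNA levels of whole cultures, in which fewer cells of a kind and less RNA per cell cannot be told apart.

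Over all 25 probesets, exposure minus reference was positive for 14 and negative for 11 at 0 ppm, positive for 13 and negative for 12 at 0.1 ppm, and positive for 8 and negative for 17 at 0.5 ppm. Their median log2 differences were 0.015, 0.082 and -0.056, beside medians of -0.071, -0.073 and -0.042 over all probesets. Without the low-actin arrays 10 were positive and 15 negative at 0 ppm (median -0.030) and 8 positive and 17 negative at 0.1 ppm (median -0.13), so the larger number of positive differences there depended on these arrays. At 0.5 ppm the split also turned on single arrays, with 14 positive and 11 negative without the exposure chamber at 0.5 ppm, replicate 3, 13 and 12 without the reference chamber, replicate 2, and 2 and 23 without the exposure chamber, replicate 2. For the brightest probeset of each gene, the log2 differences ran from -0.49 (KDM4A) to 0.30 (KDM5B) at 0 ppm, from -0.42 (KDM4A) to 0.59 (KDM5B) at 0.1 ppm, and from -0.16 (FTO) to 0.08 (KDM5B) at 0.5 ppm. KDM5B had 0.0061 at 0 ppm and 0.14 at 0.1 ppm, and KDM4A -0.32 at both, without the low-actin arrays. The lowest adjusted p of limma among these 10 was 0.880 at 0 ppm, 0.998 at 0.1 ppm and 1.0 at 0.5 ppm. The 95% confidence intervals reached from -1.29 to 1.22 at 0 ppm, from -1.45 to 1.83 at 0.1 ppm and from -0.92 to 0.91 at 0.5 ppm, so with 3 arrays a group differences within these bounds were not excluded.

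**Figure D1:**
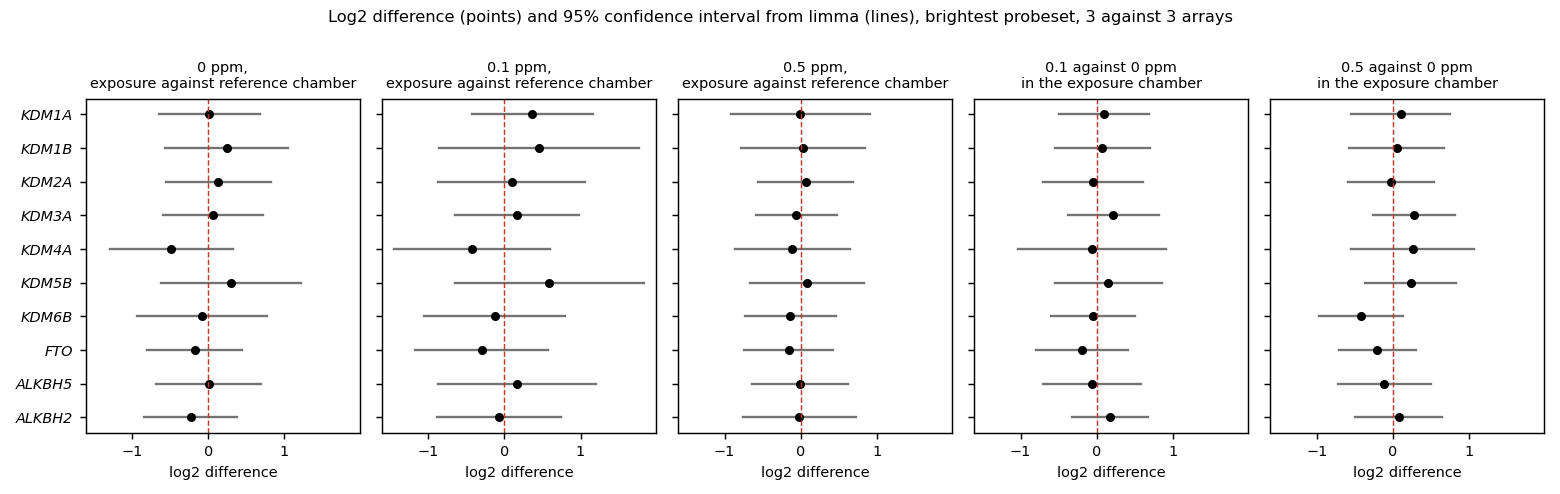
Log2 difference of the brightest probeset of each demethylase (horizontal axis, points) with the 95% confidence interval from limma (lines), 3 against 3 arrays, in 5 comparisons (panels). Every interval of the 10 genes includes 0, and those between chambers at 0.5 ppm stay between -0.92 and 0.91.

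Of the flavin-dependent demethylases, KDM1A takes mono- and dimethyl marks off the fourth lysine of histone H3 in complexes with RCOR1 and histone deacetylases. Its signals were 636, 828 and 838 in the exposure chamber at 0 ppm, against 761, 672 and 837 in the reference chamber. At 0.1 ppm they were 879, 718 and 854 in the exposure chamber, against 646, 668 and 587 in the reference chamber. The 3 exposed cultures thus lay above the 3 reference cultures, the only demethylase probeset of which this held at 0.1 ppm, while 7.87% of all probesets had groups that did not overlap. The log2 difference was 0.36 (standard error 0.33, adjusted p = 0.998 from limma), and it passed the unadjusted threshold only when 32 was added to each signal, with a difference of 0.35. At 0.5 ppm the signals were 648, 924 and 918 in the exposure chamber, against 622, 1278 and 695 in the reference chamber. The groups overlapped there and the difference was -0.0023 (standard error 0.37).

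The culture with the highest KDM1A signal, the reference chamber of 0.5 ppm, replicate 2, had received no formaldehyde. Its partner in the exposure chamber, at 924, was the second highest of the 18 arrays. The difference between chambers did not pass when it was compared between experiments, at 0.35 for 0.1 against 0 ppm (95% confidence interval -0.42 to 1.12) and -0.02 for 0.5 against 0 ppm (-0.996 to 0.962) in limma.

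KDM1B, the paralogue that acts on the same histone mark in transcribed genes, had the same replicate highest in both chambers of each concentration. By its brightest probeset, signals were 403, 326 and 330 in the exposure chamber at 0 ppm, against 421, 266 and 233 in the reference chamber. At 0.1 ppm they were 341, 461 and 324 in the exposure chamber, against 166, 561 and 212 in the reference chamber. At 0.5 ppm they were 319, 455 and 331 in the exposure chamber, against 273, 498 and 329 in the reference chamber. Replicate 2 was the highest in both chambers at 0.1 and at 0.5 ppm, as was replicate 1 at 0 ppm. The log2 differences were 0.24 at 0 ppm, 0.45 at 0.1 ppm and 0.03 at 0.5 ppm, with standard errors of 0.33, 0.54 and 0.33. With the low-actin arrays left out they were 0.07 at 0 ppm and 0.10 at 0.1 ppm.

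**Figure D2:**
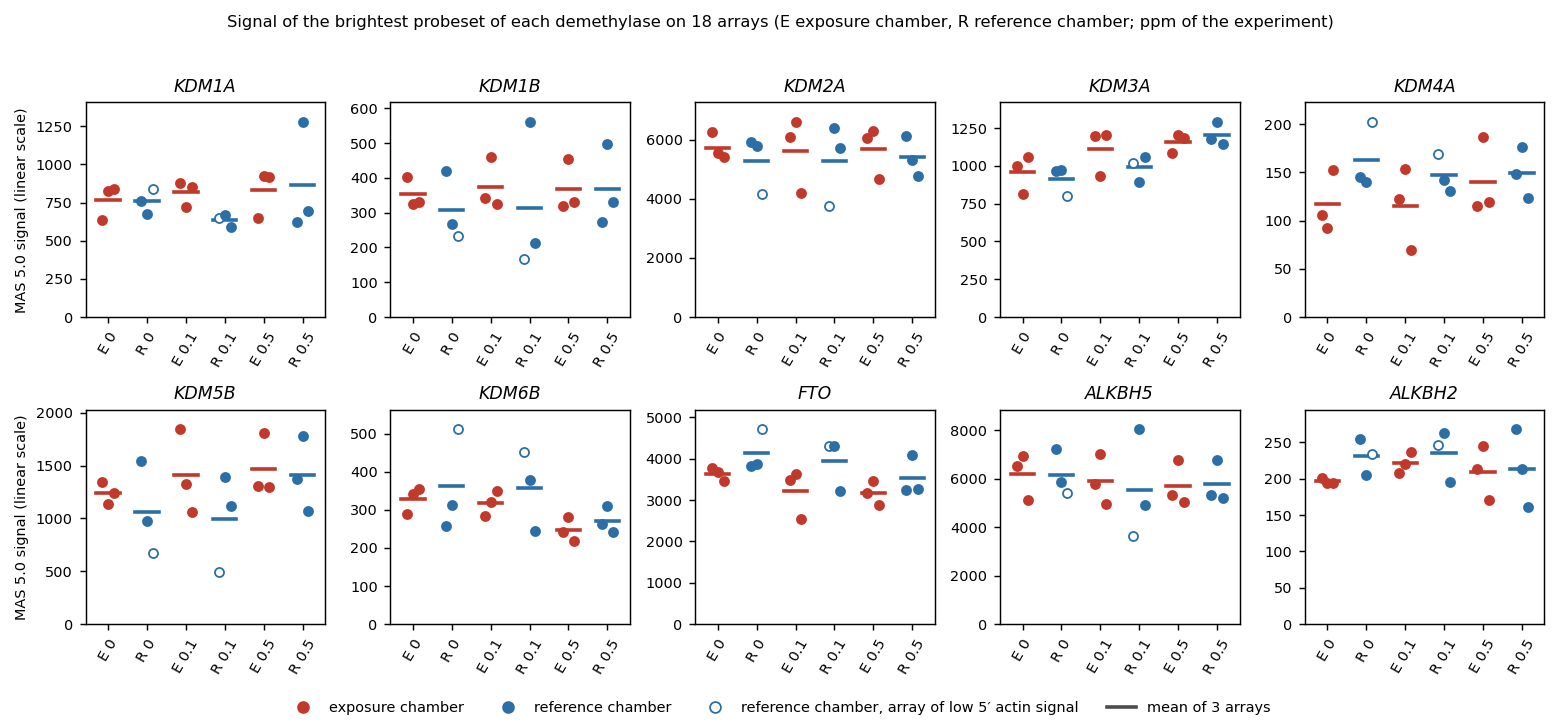
MAS 5.0 signal (vertical axis, linear from 0) of the brightest probeset of each of the 10 demethylases on 18 arrays, by chamber and ppm of the experiment (horizontal axis). Points are arrays, bars are means of 3, and open points are the 2 reference-chamber arrays of low 5′ actin signal, which carry the lowest KDM2A and KDM5B signals and the highest FTO signals.

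Among the Jumonji histone demethylases, only KDM4A had a probeset that was lower in the exposure chamber of every experiment. KDM4A removes trimethyl marks from lysines of histone H3 that silence chromatin or mark transcribed genes. Its probeset 203204_s_at had signals of 58.7, 53.2 and 46.9 in the exposure chamber at 0 ppm, against 66.9, 67.4 and 86.3 in the reference chamber. At 0.1 ppm they were 67.4, 54.3 and 56.7 in the exposure chamber, against 98.9, 69.3 and 63.8 in the reference chamber. At 0.5 ppm they were 50.9, 63.6 and 38.4 in the exposure chamber, against 53.7, 91.0 and 50.5 in the reference chamber. The culture of the exposure chamber was the lower one in every experiment, with or without formaldehyde, and the groups did not overlap at 0 ppm. The log2 differences were -0.47 (standard error 0.27), -0.36 (standard error 0.36) and -0.33 (standard error 0.35) at 0, 0.1 and 0.5 ppm. Leaving out the low-actin arrays gave -0.35 at 0 ppm and -0.17 at 0.1 ppm.

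The other KDM4A probeset, 203205_at, is the brighter one. Its signals were 106, 92.5 and 152 in the exposure chamber at 0 ppm, against 145, 140 and 202 in the reference chamber. At 0.1 ppm they were 122, 154 and 69.5 in the exposure chamber, against 169, 142 and 131 in the reference chamber. At 0.5 ppm they were 115, 186 and 119 in the exposure chamber, against 148, 176 and 124 in the reference chamber. Here the exposure chamber was the lower one in 7 of 9 experiments, the exceptions being replicate 2 at 0.1 and at 0.5 ppm. KDM6B 41386_i_at was also lower in 7 of 9, and after quantile normalization both probesets were lower in 6 of 9.

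FTO, which removes methyl groups from adenosines of mRNA and small nuclear RNA, showed the same direction. Its signals were 3770, 3673 and 3450 in the exposure chamber at 0 ppm, against 3816, 3862 and 4714 in the reference chamber. At 0.1 ppm they were 3474, 3625 and 2532 in the exposure chamber, against 4317, 4298 and 3211 in the reference chamber. At 0.5 ppm they were 3164, 3453 and 2869 in the exposure chamber, against 3248, 4099 and 3276 in the reference chamber. In each experiment the exposure chamber gave the lower value, by between 0.02 and 0.45 on the log2 scale. The groups did not overlap at 0 ppm, where neither chamber held formaldehyde, and overlapped at 0.1 and 0.5 ppm. Group means were 3631 ± 165 and 4131 ± 506 at 0 ppm, 3210 ± 592 and 3942 ± 633 at 0.1 ppm, and 3162 ± 292 and 3541 ± 484 at 0.5 ppm, in exposure and reference chamber each (SD, n = 3). The log2 difference of FTO without the low-actin arrays was -0.08 at 0 ppm and -0.23 at 0.1 ppm, against -0.18 and -0.30 with them.

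After these values had been seen, the chambers were compared over all 9 experiments with the experiment as a block. KDM4A 203204_s_at was lower in the exposure chamber, with a log2 difference of -0.39 (standard error 0.12, adjusted p = 0.494 from limma), and so was KDM4A 203205_at, with -0.34 (standard error 0.13, adjusted p = 0.494). Both passed the unadjusted threshold. FTO had a log2 difference of -0.21 (standard error 0.10, adjusted p = 0.502) and missed the threshold. It passed after quantile normalization with -0.22 (adjusted p = 0.574), with 32 added to each signal with -0.21 (adjusted p = 0.232) and among probesets above the median level with -0.21 (adjusted p = 0.248). These 2 of 25 probesets, both lower, stand beside 10.0% of all probesets past the threshold, 2.55% higher and 7.48% lower. After quantile normalization all probesets split into 2159 higher and 2529 lower, against 1396 and 4087 as deposited, so this preponderance of lower values changes with the scaling. The KDM4A call of 203205_at was lost after quantile normalization (-0.27), and that of 203204_s_at was kept (-0.32, adjusted p = 0.574). No probeset of the array passed after adjustment in this comparison (lowest adjusted p = 0.393).

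FTO and KDM4A 203204_s_at were the 2 of 25 demethylase probesets that lay lower in the exposure chamber in 9 of 9 experiments. On the same deposited signals 1.37% of all probesets did so. Both also lay lower in 9 of 9 after quantile normalization, for which the share of all probesets was not counted. None of the 25 lay higher in all 9, as 0.395% of all probesets did. They were picked out of the 25 by these signs, so the counts are a description. Both low-actin arrays are reference-chamber cultures, and FTO was higher on them (4714 and 4317) than on the other 16 arrays (2532 to 4298). Without their 2 experiments, FTO was lower in 7 of 7 with a mean log2 difference of -0.16 and KDM4A 203204_s_at in 7 of 7 with -0.29. The share of all probesets lower in these 7 was not counted. KDM4A 203205_at was then lower in 5 of 7, with a difference of -0.31 that missed the threshold. KDM4A 203204_s_at was the 1 of 25 probesets still past it, beside 3591 of all 54675 probesets. The summed signal of 3 leukocyte markers was 56.2 to 146 in the exposure chamber and 82.2 to 340 in the reference chamber. PTPRC and CD3E, 2 of the 3, stayed at 12.4 or below on every array, so the sum was mostly CD14 (54.5 to 338), in cultures of 1 cell line. The sum of 4 fibroblast markers was 227 to 488 in the exposure chamber and 248 to 511 in the reference chamber. That of 3 endothelial markers was 19.6 to 81.2 and 19.3 to 117. The part of these markers in the result was not tested.

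**Figure D3:**
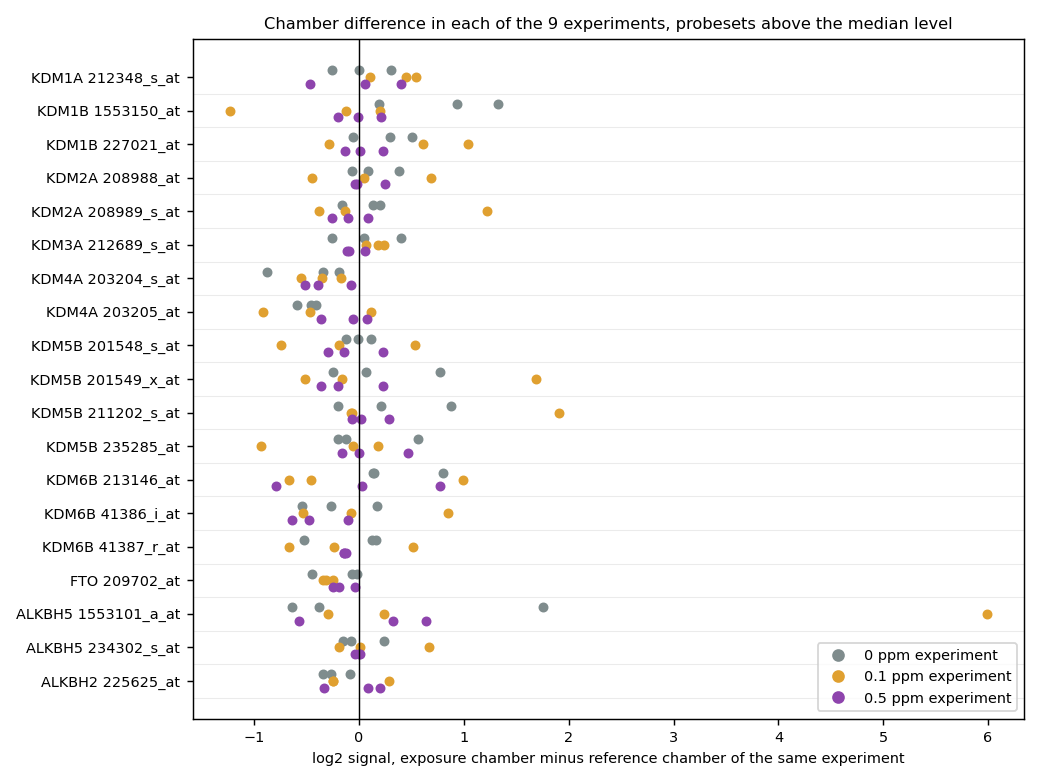
Log2 signal of the exposure chamber minus that of the reference chamber (horizontal axis) in each of the 9 experiments, for the 19 demethylase probesets above the median level (vertical axis), coloured by ppm of the experiment. All 9 points of FTO and of KDM4A 203204_s_at lie left of 0, and the point at 5.99 of ALKBH5 1553101_a_at belongs to the 0.1 ppm experiment whose reference array had a low 5′ actin signal.

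Whether the FTO and KDM4A differences depended on formaldehyde was tested as a change of the chamber difference, and no change passed the threshold. That of FTO changed by -0.12 (95% confidence interval -0.94 to 0.70) between 0.1 and 0 ppm and by 0.02 (-0.64 to 0.68) between 0.5 and 0 ppm in limma. For KDM4A 203205_at the values were 0.06 (-1.05 to 1.18) and 0.38 (-0.58 to 1.33), and for 203204_s_at 0.11 (-0.74 to 0.96) and 0.14 (-0.80 to 1.08). Within the exposure chamber FTO had log2 differences of -0.19 (standard error 0.24) at 0.1 against 0 ppm and -0.20 (standard error 0.20) at 0.5 against 0 ppm. These last comparisons share the 3 arrays of the exposure chamber at 0 ppm.

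KDM5B, which erases trimethyl marks at the fourth lysine of histone H3, held the one call among concentrations, on a dim probeset. KDM5B 201547_at had signals of 11.1, 11.0 and 11.9 in the exposure chamber at 0.5 ppm, against 2.02, 2.63 and 5.21 in the exposure chamber at 0 ppm. All 3 arrays at 0.5 ppm lay above the 3 at 0 ppm, and all 6 values lay below the median signal of any array. The log2 difference was 1.91 (standard error 0.39, 95% confidence interval 0.93 to 2.89, adjusted p = 0.645 from limma), with 1.93% of all probesets past the threshold in this direction. With 32 added to each signal the difference was 0.30 (adjusted p = 1.0). The same probeset had 12.6, 0.50 and 9.44 in the exposure chamber at 0.1 ppm, and 4.99, 12.6 and 4.67 in the reference cultures of the 0.5 ppm experiments. Within the single group at 0.1 ppm it thus spanned values both below and above those of the 2 groups compared. The change of the chamber difference between 0.5 and 0 ppm was 1.16 (95% confidence interval -1.22 to 3.53). With all 18 arrays in 1 fit the difference was again 1.91, its standard error was 1.03 and the call was lost, and a filter at the median level removes the probeset.

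The other 4 KDM5B probesets had log2 differences of 0.10 to 0.46 between 0.5 and 0 ppm, and none of them passed. By the brightest, 211202_s_at, signals were 1308, 1809 and 1300 in the exposure chamber at 0.5 ppm, against 1345, 1133 and 1238 in the exposure chamber at 0 ppm. The groups overlapped, and the log2 difference was 0.24 (standard error 0.24). The probeset was at 673 and 491 on the 2 low-actin arrays, against 980 to 1845 on the other 16.

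KDM6B erases trimethyl marks at the lysine residues of histone H3 that the polycomb enzyme EZH2 methylates. By its brightest probeset, 41387_r_at, signals were 241, 281 and 219 in the exposure chamber at 0.5 ppm, against 290, 342 and 356 in the exposure chamber at 0 ppm. The groups did not overlap, but the difference of -0.42 (standard error 0.22, adjusted p = 1.0 from limma) missed the threshold. It passed with 32 added to each signal (-0.37). The partner cultures of the 0.5 ppm experiments in the reference chamber, without formaldehyde, had 262, 311 and 241. The dim probeset 1556066_at had a log2 difference of -1.06 between exposure and reference chamber at 0.5 ppm. It passed with the replicate number as a block (adjusted p = 0.935) and not without it (adjusted p = 1.0), on signals of 1.93, 2.92 and 3.48 in the exposure chamber, against 3.20, 10.1 and 5.49 in the reference chamber.

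KDM3A, a demethylase of the ninth lysine of histone H3, had signals of 1082, 1204 and 1187 in the exposure chamber at 0.5 ppm, against 999, 815 and 1055 in the exposure chamber at 0 ppm. The groups did not overlap, and the log2 difference was 0.28 (standard error 0.22, adjusted p = 1.0 from limma). The reference chambers of the same experiments, all without formaldehyde, showed the same order, with 1174, 1291 and 1145 in the 0.5 ppm experiments, against 967, 975 and 800 in the 0 ppm experiments. The change of the chamber difference was -0.12 (95% confidence interval -0.77 to 0.53). In all, 3 of 25 probesets had groups that did not overlap between 0.5 and 0 ppm, those of KDM5B, KDM3A and KDM6B named here, beside 8.55% of all probesets.

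KDM2A removes dimethyl marks in CpG island chromatin. Of the brightest probesets, its own had the smallest ratio between the highest and the lowest group mean. The 6 means of its brightest probeset lay between 5283 ± 976 in the reference chamber of 0 ppm and 5730 ± 459 in the exposure chamber at 0 ppm (SD, n = 3), a ratio of 1.08. Its log2 differences between chambers were 0.13, 0.10 and 0.06 at 0, 0.1 and 0.5 ppm, and without the low-actin arrays -0.03 at 0 ppm and -0.13 at 0.1 ppm. The group means of KDM2A 208989_s_at ran from 1240.4 in the exposure chamber at 0.5 ppm to 1554.5 in that at 0 ppm. Those of the dim KDM2A 208987_s_at ran from 14.5 to 29.9 (exposure chamber at 0.5 and at 0.1 ppm). By their brightest probesets the other genes had ratios of highest to lowest group mean of up to 1.47 (KDM5B). When the 6 groups of each gene were ordered by their means, the arrays did not overlap in 1 of 50 neighbouring pairs. This was KDM1A in the reference chambers of 0 ppm (lowest 672) and of 0.1 ppm (highest 668), both without formaldehyde. Neighbours in this order have close means, and the share over all probesets was not counted, so the count is a description only.

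ALKBH5, the other eraser of methylated adenosine in mRNA, had group means of 5524 ± 2269 to 6173 ± 951 (SD, n = 3) by its brightest probeset, 234302_s_at, the lowest in the reference chamber of 0.1 ppm and the highest in the exposure chamber at 0 ppm. Its log2 differences between chambers were 0.0029, 0.16 and -0.01 at 0, 0.1 and 0.5 ppm, with standard errors of 0.28, 0.43 and 0.25, and without the low-actin arrays -0.09 at 0 ppm and -0.10 at 0.1 ppm. ALKBH5 1553101_a_at lay far below its usual range on the low-actin arrays, at 36.0 and 3.42 against 121 to 388 on the other 16. It gave the largest chamber difference of any demethylase probeset in 1 experiment, 5.99 on the log2 scale at 0.1 ppm, replicate 1. Without the 2 experiments its mean difference was -0.10, against 0.78 with them.

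ALKBH2, which repairs methylated bases in double-stranded DNA, had signals of 201, 194 and 194 in the exposure chamber at 0 ppm, against 255, 205 and 234 in the reference chamber. At 0.1 ppm they were 208, 221 and 237 in the exposure chamber, against 247, 263 and 195 in the reference chamber. At 0.5 ppm they were 213, 245 and 171 in the exposure chamber, against 268, 213 and 161 in the reference chamber. The exposure chamber at 0 ppm lay below its reference chamber and below the exposure chamber at 0.1 ppm without overlap. The log2 differences were -0.23 (standard error 0.25) between chambers at 0 ppm and 0.18 (standard error 0.20) between 0.1 and 0 ppm, and neither passed. Groups did not overlap between chambers at 0 ppm for 4 of 25 probesets, those of ALKBH2, FTO, KDM4A 203204_s_at and KDM6B 213146_at, the last of which was higher. This was so for 10.0% of all probesets at 0 ppm. None of 25 were apart between chambers at 0.5 ppm (6.75% of all), and ALKBH2 alone between 0.1 and 0 ppm (8.57% of all).

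Several demethylases differed on the arrays of low 5′ actin signal, as did many other probesets. On both of these arrays 4 of 25 probesets lay below the other 16 arrays, namely KDM2A 208988_at, KDM5B 201549_x_at, KDM5B 211202_s_at and ALKBH5 1553101_a_at. KDM6B 41387_r_at and FTO, 2 of 25, lay above. Among all probesets 9.57% lay below and 14.1% above. KDM6B 41387_r_at had 512 and 451 on these arrays, against 219 to 379 on the other 16, whereas KDM6B 213146_at had 80.4 and 55.4, against 67.1 to 210. Probesets of the same gene thus went opposite ways on these arrays.

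**Figure D4:**
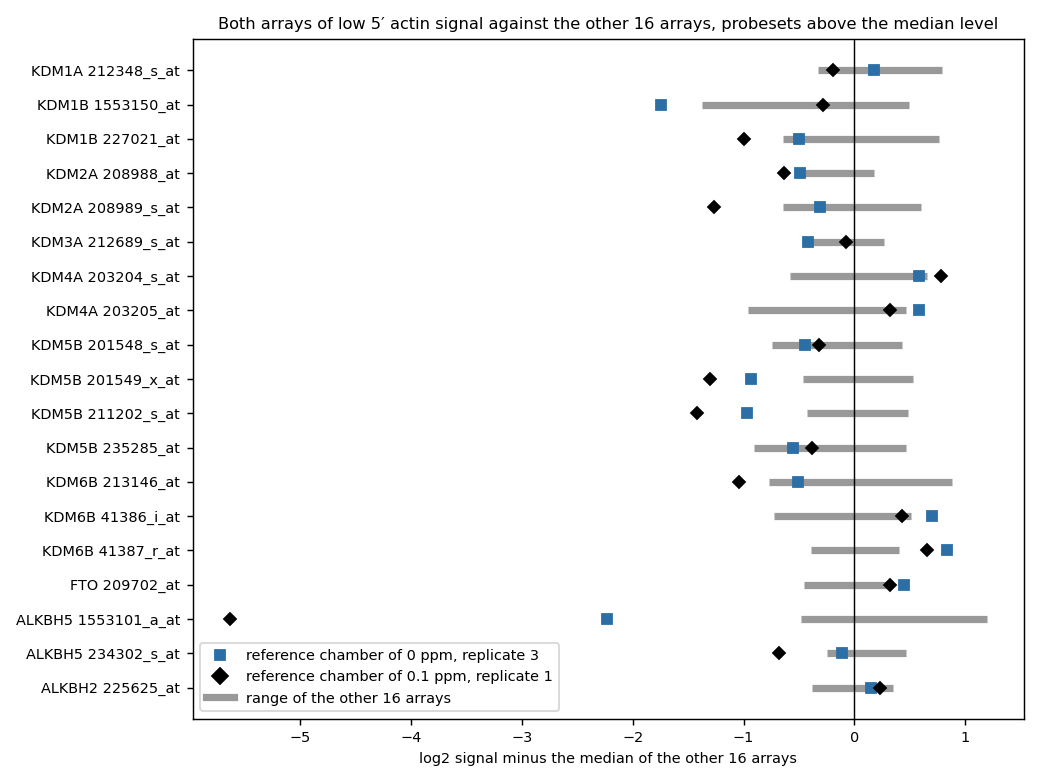
Log2 signal of the 2 reference-chamber arrays of low 5′ actin signal (square and diamond) minus the median of the other 16 arrays (horizontal axis), with the range of those 16 as a grey bar, for 19 demethylase probesets (vertical axis). Both marks of ALKBH5 1553101_a_at, KDM5B 201549_x_at and 211202_s_at, and KDM2A 208988_at lie left of the bar, and FTO and KDM6B 41387_r_at lie right of it.

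Over the 18 arrays the demethylases did not form 1 pattern. The 45 pairs of genes, each by its brightest probeset, had Pearson correlations of log2 signals from -0.604 (KDM5B with KDM6B) to 0.857 (KDM1B with ALKBH5), with a median of 0.0916. Without the low-actin arrays the median was 0.346, KDM5B with KDM6B had -0.0687 and KDM1B with ALKBH5 had 0.796. KDM4A with FTO had 0.674, and 0.565 without these arrays. FTO with ALKBH5, both erasers of methylated adenosine, had 0.268, and 0.803 without these arrays, then the highest of the 45 pairs. These values are descriptions over 18 arrays that share experiments in pairs.

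**Figure D5:**
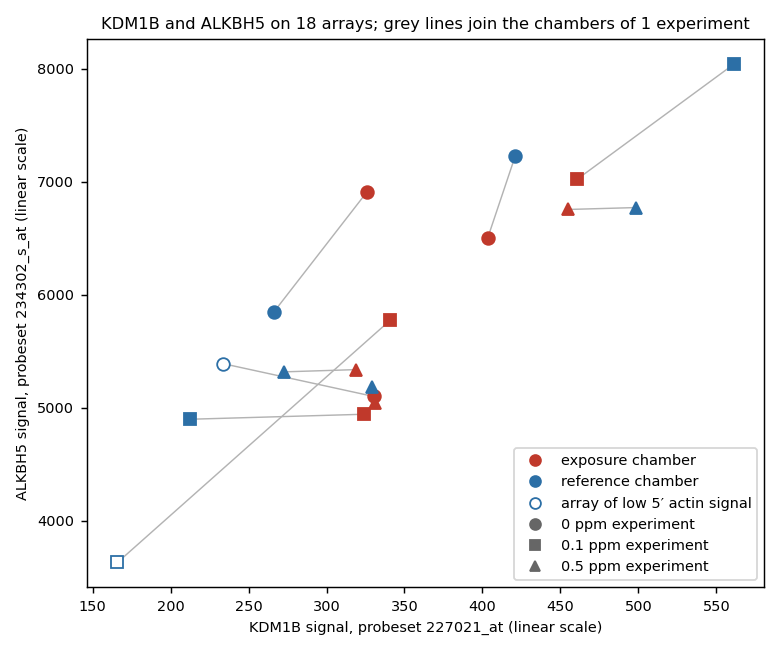
Signal of KDM1B (horizontal axis) and of ALKBH5 (vertical axis) on 18 arrays, on linear scales, with grey lines between both chambers of an experiment. Both genes are highest in the reference chamber of 0.1 ppm, replicate 2 (561 and 8040), and lowest in the reference chamber of 0.1 ppm, replicate 1 (166 and 3632), an array of low 5′ actin signal.

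The genes most like each demethylase were taken from 12392 candidates by Pearson correlation over the 18 arrays, the 2 highest each. KDM2A was nearest to ATP11A (0.978) and TOB2 (0.973), KDM5B to RAB22A (0.969) and RIMOC1 (0.963), and KDM1B to BHLHE40 (0.940) and RAB8A (0.923). FTO was nearest to TGM2 (0.935) and VPS35L (0.931), ALKBH5 to TSPAN14 (0.935) and COPS7B (0.929), and KDM6B to DDX11 (0.923) and UBAP2L (0.903). KDM3A was nearest to DYNC2H1 (0.915) and QSER1 (0.872), KDM1A to CAB39 (0.855) and TYW1 (0.830), and KDM4A to NRG2 (0.852) and SIDT2 (0.848). ALKBH2 had no gene above 0.724, that of CEP89, followed by ERFE at 0.716. The correlations of these 20 pairs reached 0.961 (KDM2A with TOB2) when the low-actin arrays were left out, and those outside ALKBH2 were at least 0.777 (KDM6B with UBAP2L). None of the nearest genes was another demethylase of the 10.

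Around the 10 demethylases stand enzymes that share or oppose their marks, and 40 of 42 such genes were measured. These are 12 other histone demethylases, 2 other nucleic acid demethylases, 8 of 10 writers and readers of methylated adenosine, 7 partners of KDM1A and KDM1B, and 11 histone methyltransferases. Between chambers 28 were higher and 12 lower at 0 ppm, 28 higher and 12 lower at 0.1 ppm, and 14 higher and 26 lower at 0.5 ppm. Without the low-actin arrays 23 were higher and 17 lower at 0 ppm, and 18 higher and 22 lower at 0.1 ppm. Past the threshold were 1 of 40, 0 of 40 and 0 of 40, where 4.84%, 4.00% and 3.92% of all probesets passed, so the share of these genes was not above that of the array. The 1 gene at 0 ppm was SUV39H1, which sets silencing marks on the ninth lysine of histone H3. Its signal was lower in cultures of the exposure chamber, with a log2 difference of -0.85 (standard error 0.32, adjusted p = 0.880 from limma). Without the low-actin array the difference was -0.60 and the call was lost. Between 0.1 and 0 ppm in the exposure chamber, EHMT2, which sets the dimethyl form of that mark, was lower at 0.1 ppm (log2 difference -0.62, standard error 0.24, adjusted p = 1.0 from limma), the 1 of 40 past the threshold, beside 4.47% of all probesets. Between 0.5 and 0 ppm, 21 were higher and 19 lower and 0 passed, beside 4.56% of all probesets.

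The 12 other histone demethylases had medians of 0.18, 0.09 and -0.02 between chambers at 0, 0.1 and 0.5 ppm. The 8 writers and readers of methylated adenosine, such as METTL3, the catalytic writer, and YTHDF1, a reader, had medians of 0.11, 0.16 and -0.03. The partners of KDM1A and KDM1B, such as the scaffold RCOR1 and the deacetylases HDAC1 and HDAC2, had medians of 0.11, 0.24 and -0.01. The methyltransferases, such as EZH2 and SETDB1, had medians of 0.00055, 0.05 and -0.0036. All probesets had medians of -0.071, -0.073 and -0.042. Without the low-actin arrays the other histone demethylases had medians of 0.01 at 0 ppm and -0.22 at 0.1 ppm, the writers and readers 0.10 and 0.15, the partners -0.04 and -0.03, and the methyltransferases 0.05 and -0.11, beside -0.03 and -0.04 over all probesets.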

How the data were processed

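RNA of 18 A549 cultures was labelled and hybridised to Affymetrix HG-U133 Plus 2.0 arrays by the authors. The deposited values are linear MAS5 intensity signals, scaled by the authors so that the mean of each array is 500 after trimming 2% at each end, and the genome build is not given in the sources used here. The number of arrays limits the precision. Log2 signals, with no pseudocount, were compared in limma 3.58.1 under R 4.3.3, 3 arrays against 3 or 12 arrays for differences between chambers, tested on simulated data. No block for the experiment was used in these fits. The threshold of the study's methods, an unadjusted p under 0.05, was used with a Benjamini-Hochberg adjusted p over all 54675 probesets beside it. It was applied to each comparison alone, without the study's rule of passing 2 comparisons. Groups come from the sample labels.

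In the platform annotation 41097 probesets had 1 gene symbol, 1801 several and 11777 none. Every probeset that names a single demethylase of the list was used, and the probeset with the highest mean log2 signal stands for its gene. Of the related lists, the genes past the threshold were named, and a few others as examples. Members and lists were chosen with earlier results of these data known. The replicate number pairs both chambers of an experiment, since the raw file labels carry a common experiment number, although the label of 1 array carries another date than that of its partner. Deviations of paired arrays from their group means correlated at -0.0196 to 0.121 over all probesets and 0.00861 to 0.490 over those above the median. Quantile normalization, 32 added to each signal, a filter at the median level, a trend in the variance, 1 fit of all arrays, the replicate block and left-out arrays were tried as alternatives. The comparison of chambers over 9 experiments was added after the values were seen. Promoters come from a RefSeq table.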

Additional observations from a re-analysis of the deposited data

How the results depend on the processing

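Counts of demethylase probesets past the threshold were 0 to 3 under every alternative run. With 32 added to each signal the count was 1 at 0 ppm (KDM4A 203204_s_at) and 1 at 0.1 ppm (KDM1A) between chambers, and 2 between 0.5 and 0 ppm (KDM5B 201547_at and KDM6B 41387_r_at). Of all 54675 probesets 2613, 1543 and 2385 passed there. With the replicate block the count was 1 between chambers at 0.5 ppm (KDM6B 1556066_at), beside 2908 of all probesets. The block changed no other call in the 3 comparisons of chambers and the 2 of chamber differences. Between 0.5 and 0 ppm the count was 0 with all 18 arrays in 1 fit, beside 1792 of 54675 probesets. It was 0 above the median level, beside 976 of 27337, and KDM5B 201547_at was not tested there. For the chambers over 9 experiments it was 1 with no replicate block and 1 without both low-actin experiments, beside 4097 and 3591 of all probesets. The cause was not tested.

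Leaving out single arrays gave 0 to 1 at 0 ppm, 0 to 0 at 0.1 ppm, 0 to 2 at 0.5 ppm, 0 to 1 between 0.1 and 0 ppm, 1 to 3 between 0.5 and 0 ppm, and 0 to 1 for both differences between chambers. Of all 54675 probesets 2409 to 4979 passed at 0 ppm, 2177 to 2542 at 0.1 ppm and 2193 to 2577 at 0.5 ppm. Between 0.1 and 0 ppm 2290 to 2944 passed, and between 0.5 and 0 ppm 2435 to 3018. For the differences between chambers 1666 to 2030 passed at 0.1 and 1907 to 3442 at 0.5 against 0 ppm. Leaving out single experiments gave 1 to 2 over the 9 experiments, beside 3754 to 6149 of all probesets. Without the reference chamber of 0 ppm, replicate 1, KDM1B 1553150_at passed at 0 ppm and in both chamber differences (log2 1.31, -1.69 and -1.31). Without replicate 2 or 3 of that group, KDM5B 201547_at (2.08, at 0.5 against 0 ppm) or ALKBH5 228034_x_at (-1.46, at 0.1 against 0 ppm) passed. Without the reference chamber of 0.5 ppm, replicate 1, KDM6B 1556066_at passed at 0.5 ppm (-1.46), and without its replicate 2 KDM5B 201547_at (1.23) and KDM3A 242758_x_at (2.53) did. These 3 probesets are dim, KDM3A 242758_x_at with signals of 0.19 to 5.62 over the 18 arrays. Without the exposure chamber at 0.1 ppm, replicate 2, KDM5B 201547_at passed between 0.1 and 0 ppm (1.85). Between 0.5 and 0 ppm, 3 passed without the exposure chamber at 0 ppm, replicate 1, and 2 without its replicate 2 or without replicate 1 or 2 at 0.5 ppm. Over the 9 experiments, KDM4A 203205_at lost its call without replicate 1, 2 or 3 at 0 ppm, replicate 3 at 0.1 ppm or replicate 1 at 0.5 ppm (log2 -0.34 to -0.27).

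Of 1120 log2 differences of the brightest probesets of the 10 genes under an alternative, 1107 kept their side of the threshold, 5 came to pass it and 8 no longer passed it. All 8 belonged to KDM4A 203205_at over the 9 experiments, the only brightest probeset past the threshold in a first fit. The 1107 were mostly differences that had not passed at first, so their number does not show that a call is stable. The sign turned in 123 of the 1120 differences, none of them past the threshold in its first fit. An order of demethylases by level was not run, since signals of different probesets cannot be compared.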
